A study of Homo sapiens with 2 samples.

Results

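MicroRNA host genes are genes whose transcripts carry a microRNA hairpin in an exon or intron. They were taken here as every gene of the table whose name starts with MIR and ends with HG, which gave 75 of 38637 genes, all typed as long non-coding RNA (lncRNA). The measured material was poly(A)-selected RNA of H1299, an established human non-small cell lung cancer cell line derived from a lymph node metastasis, in 2 libraries. The knockdown library is labelled as treated by PHF12 KD and its title carries the prefix si. The control library is labelled as untreated and its title ends in nc. Both libraries carry the genotype label wild type, and the labels do not say if an oligonucleotide was given to the control cells. The series was made to ask how PHF12, a PHD-finger subunit of a Sin3 and histone deacetylase corepressor complex, acts on signalling in these cells. Of the 75 host genes, 20 were expressed, averaging 1 CPM or more over both libraries (CPM being a gene's counts scaled to 1000000 per library), 26 had few counts and 29 were at 0 in both libraries. With 1 library per group no test was possible: every difference below describes these libraries, not the conditions, and every interval is a 95% interval for counting error only.

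A host gene is transcribed by RNA polymerase II, and the hairpin is cut out of the nascent transcript by the Microprocessor, made of DROSHA and DGCR8. Exportin 5 carries the hairpin to the cytoplasm, DICER1 trims it, and 1 strand is loaded into an Argonaute protein that lowers the output of messenger RNAs pairing with the seed, bases 2 to 8 of the microRNA. Poly(A)-selected RNA-seq measures the spliced, polyadenylated host transcript and not the mature microRNA, whose level also depends on processing and turnover. Several hosts are known in cancer: MIR17HG is a MYC target that carries the oncogenic miR-17-92 cluster, while MIR34AHG is a target of p53, a protein that H1299 lacks.

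The hosts that the results turn on carry the following mature microRNAs, shown so that hosts sharing a seed can be read side by side. Sequences are those of RefSeq (GRCh38.p14), 5′ to 3′, with the seed in capitals. MIR17HG carries 6 microRNAs, of which miR-17 and miR-20a share a seed, as do miR-19a and miR-19b.
hsa-miR-17-5p: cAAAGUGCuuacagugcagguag
hsa-miR-20a-5p: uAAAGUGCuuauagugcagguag
hsa-miR-18a-5p: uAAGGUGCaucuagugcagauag
hsa-miR-19a-3p: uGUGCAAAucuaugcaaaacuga
hsa-miR-19b-3p: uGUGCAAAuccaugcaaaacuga
hsa-miR-92a-3p: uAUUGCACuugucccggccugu
MIR100HG carries miR-100, let-7a and miR-125b, and MIRLET7BHG carries let-7b, which has the seed of let-7a.
hsa-miR-100-5p: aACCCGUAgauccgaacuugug
hsa-let-7a-5p: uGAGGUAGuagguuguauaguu
hsa-let-7b-5p: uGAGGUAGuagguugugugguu
hsa-miR-125b-5p: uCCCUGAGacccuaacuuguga
MIR23AHG carries miR-23a, miR-27a and miR-24, MIR222HG carries miR-221 and miR-222 with a common seed, and MIR22HG carries miR-22.
hsa-miR-23a-3p: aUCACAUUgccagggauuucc
hsa-miR-27a-3p: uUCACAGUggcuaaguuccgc
hsa-miR-24-3p: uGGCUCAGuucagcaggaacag
hsa-miR-221-3p: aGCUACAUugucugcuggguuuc
hsa-miR-222-3p: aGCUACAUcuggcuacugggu
hsa-miR-22-3p: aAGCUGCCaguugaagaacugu
MIR210HG, MIR31HG, MIR503HG and MIR9-3HG carry 1 microRNA each.
hsa-miR-210-3p: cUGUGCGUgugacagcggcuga
hsa-miR-31-5p: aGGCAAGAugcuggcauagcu
hsa-miR-503-5p: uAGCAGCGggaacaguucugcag
hsa-miR-9-5p: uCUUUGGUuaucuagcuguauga

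The knockdown library held 26084594 counts and the control library 24740581. PHF12 itself had 756 counts in the knockdown library and 947 in the control library, a ratio of 0.753 (0.683 to 0.829) after scaling, so the targeted transcript was lower but well represented. The line's markers were checked: the keratin genes KRT8 and KRT18 and the intermediate filament gene VIM were abundant, with 888, 1772 and 4876 TPM in the knockdown library and 1147, 2189 and 5349 TPM in the control library. The other epithelial genes of the list were scarce: KRT7 had 56 counts in the knockdown library and 76 in the control library, EPCAM had 25 in the knockdown library and 19 in the control library, KRT19 had 13 in the knockdown library and 5 in the control library, and the epithelial cadherin gene CDH1 had 0 in both. All 4 expressed genes of this list of 7, KRT8, KRT18, KRT7 and VIM, had counting intervals below 0, where 20.9% of all expressed genes did, with log2 ratios of −0.40 for KRT8, −0.33 for KRT18, −0.53 for KRT7 and −0.16 for VIM. TPM, as deposited, is the count per gene length scaled to a sum of 1000000 per library. Of 6 leukocyte markers 3 were at 0, PTPRC among them, and the 6 summed to 1.65 TPM in the knockdown library and 1.70 TPM in the control library. Of 3 endothelial markers 2 were expressed. PECAM1 had 50 counts in the knockdown library and 43 in the control library, and VWF had 36 in the knockdown library and 30 in the control library. Of 4 fibroblast markers 1 was expressed, COL1A1, with 63 counts in the knockdown library and 50 in the control library. The intervals of PECAM1, VWF and COL1A1 held 0. Of 3 pluripotency markers NANOG was at 0 and POU5F1 had 4 counts in the knockdown library and 5 in the control library. The 3 neuron markers summed to 9.35 TPM in the knockdown library and 7.27 TPM in the control library, most of it from the synaptic vesicle gene SYT1, with 407 counts in the knockdown library and 295 in the control library and a log2 ratio of 0.38 (0.16 to 0.60). MAP2 had 116 counts in the knockdown library and 104 in the control library, and RBFOX3 had 0 in the knockdown library and 1 in the control library. The part of these marker differences in the host gene values was not tested.

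The 75 host genes together took 5221 counts in the knockdown library and 4690 in the control library, a difference of 531 counts. That was 0.0200% of the knockdown library (0.0195% to 0.0206%, exact Clopper-Pearson interval) and 0.0190% of the control library (0.0184% to 0.0195%). Relative to the scaled library sizes the log2 ratio of these sums was 0.07 (0.01 to 0.13). MIR100HG alone gave 334 of the extra counts: the other 74 hosts summed to 4036 counts in the knockdown library and 3839 in the control library, a log2 ratio of −0.01 (−0.08 to 0.05). Raw counts were higher in the knockdown library for 24 hosts, lower for 21 and equal for 1, and that library was 1.05 times as deep. The same 5 hosts, MIR4435-2HG, MIR100HG, MIR23AHG, MIR22HG and MIR222HG, held most of the signal, with 4042 counts or 77.4% (76.3% to 78.6%) of the host counts in the knockdown library and 3560 counts or 75.9% (74.7% to 77.1%) in the control library. Among the 20 expressed hosts, 8 had at least 100 counts in a library and 12 had under 100 counts in both, and those 12 are marked below as having few counts behind them.

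Per length, the most abundant hosts were MIR22HG, MIR4435-2HG and MIR100HG. MIR22HG had 24.7 TPM in the knockdown library and 20.3 TPM in the control library, and MIR4435-2HG had 22.1 TPM in the knockdown library and 21.5 TPM in the control library, so these hosts changed places at the top of the order. Below MIR100HG came a group between 5 and 11 TPM made up of MIR378D2HG, MIR503HG, MIR23AHG and, in the knockdown library alone, MIR762HG and MIR4453HG. Within that group MIR503HG had 9.06 TPM in the knockdown library and 8.30 TPM in the control library, a gap much smaller than that of its neighbour MIR378D2HG. MIR23AHG had 8.73 TPM in the knockdown library and 10.3 TPM in the control library. MIR762HG had 5.41 TPM in the knockdown library and 3.92 TPM in the control library, and MIR4453HG had 5.39 TPM in the knockdown library and 4.84 TPM in the control library. Next came hosts between 2 and 5 TPM, which differed in direction. MIR210HG had 3.42 TPM in the knockdown library and 2.39 TPM in the control library, and MIR31HG had 3.26 TPM in the knockdown library and 2.70 TPM in the control library, both higher in the knockdown library. MIR1915HG had 3.38 TPM in the knockdown library and 3.88 TPM in the control library, MIR570HG had 3.21 TPM in the knockdown library and 4.43 TPM in the control library, and MIR600HG had 2.85 TPM in the knockdown library and 3.40 TPM in the control library, all lower in the knockdown library. Lower down, MIR2052HG had 1.78 TPM in the knockdown library and 1.59 TPM in the control library and MIR3936HG had 1.5 TPM in the knockdown library and 1.62 TPM in the control library. MIR137HG had 1.05 TPM in the knockdown library and 1.23 TPM in the control library. The lowest of the expressed hosts differed between libraries: MIR9-3HG had 0.762 TPM in the knockdown library and 1.05 TPM in the control library, and MIRLET7BHG had 0.938 TPM in the knockdown library and 0.739 TPM in the control library. Under 100 counts in both libraries lay behind the levels of MIR378D2HG, MIR503HG, MIR762HG, MIR210HG, MIR31HG, MIR570HG, MIR2052HG, MIR3936HG, MIR137HG, MIR9-3HG and MIRLET7BHG. Of these hosts only MIR378D2HG had a counting interval clear of 0, and those of MIR1915HG and MIR600HG held 0 as well. MIR222HG shows what length does to these levels: only 4 hosts had more counts in either library, but its listed length of 24922 bases, 99.5% of its span, left it at 1.71 TPM in the knockdown library and 1.66 TPM in the control library.

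**Figure D1:**
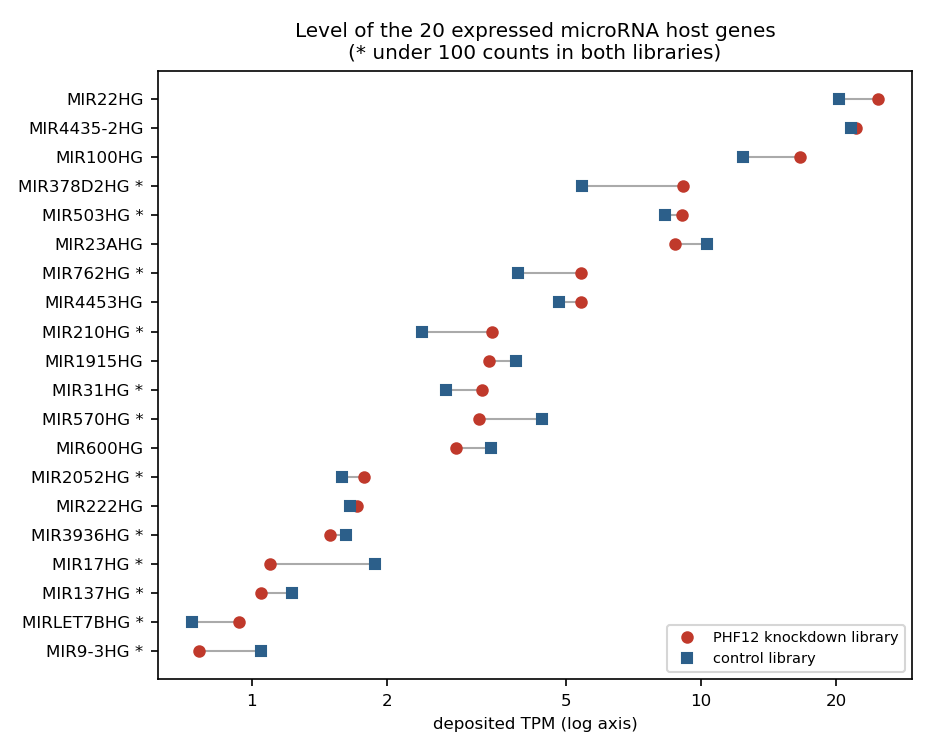
Deposited TPM (log axis) of the 20 expressed microRNA host genes in the knockdown library (circles) and the control library (squares), ordered by the knockdown level, with an asterisk on hosts under 100 counts in both libraries. MIR22HG and MIR4435-2HG stand at the top near 20 TPM, and the widest gaps are those of MIR17HG, lower in the knockdown library, and MIR378D2HG, higher in it.

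Across the 20 expressed hosts the change was small and mixed. The log2 fold change, computed on CPM plus 0.5, had a median of 0.05, against −0.01 over all 14559 genes expressed by the same rule and 0.06 over the 1473 lncRNA genes among them. It was above 0 for 12 hosts and below 0 for 8, from −0.67 for MIR17HG to 0.59 for MIR378D2HG. By the rule of size, at least 1.5-fold, 1 host was higher, where 1.33% of all expressed genes and 3.26% of expressed lncRNA genes were, and 1 was lower, where 1.41% of all expressed genes and 1.09% of expressed lncRNA genes were. No host reached 2-fold, which 0.117% of all expressed genes did in each direction. The median absolute log2 fold change was 0.25 for hosts, 0.18 for expressed lncRNA genes and 0.13 for all expressed genes, with median levels of 2.53, 2.96 and 27.1 CPM. The counting interval of the log2 ratio, which carries no pseudocount, lay above 0 for 3 hosts (MIR100HG, MIR22HG and MIR378D2HG) and below 0 for 2 (MIR23AHG and MIR17HG). These are 15% and 10% of the expressed hosts, against 20.3% and 20.9% of all expressed genes and 13.1% and 7.2% of expressed lncRNA genes, and for the other 15 hosts the interval held 0. Precision followed depth: the interval spanned 0.24 to 0.74 log2 units for hosts with at least 100 counts in a library, and 1.04 to 1.71 for the others.

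**Figure D2:**
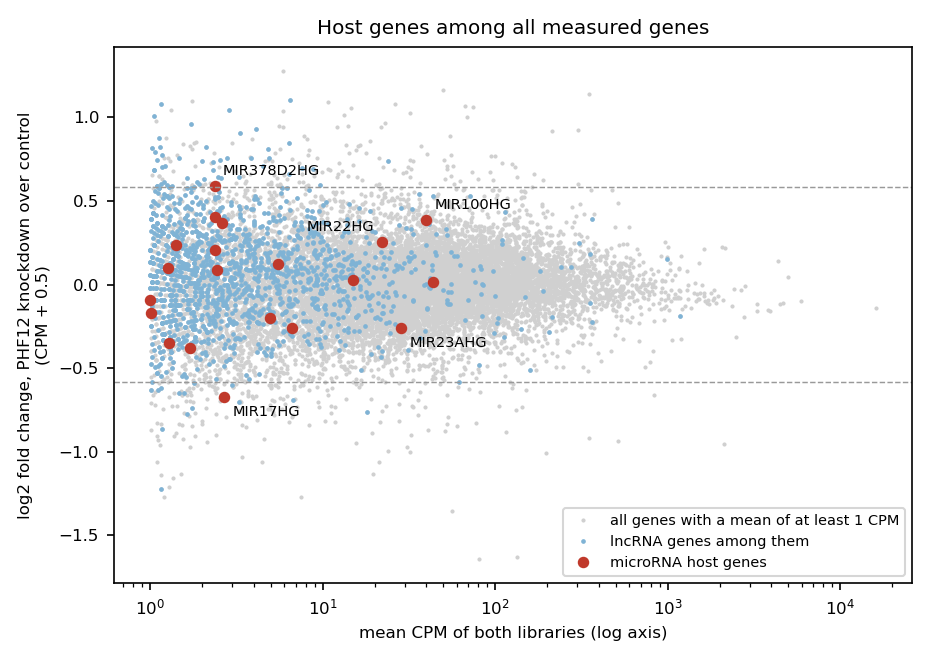
Log2 fold change of the knockdown over the control library on CPM plus 0.5 against the mean CPM of both libraries (log axis) for all 14559 expressed genes, with lncRNA genes in blue and the 20 microRNA host genes in red; dashed lines mark 1.5-fold. Of the hosts, MIR17HG lies below the lower line and MIR378D2HG just above the upper one.

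MIR17HG was the lowest host. It spans chr13:91347820-91354575 on the plus strand (hg38), and its transcript is the precursor of miR-17, miR-18a, miR-19a, miR-20a, miR-19b and miR-92a, which favour proliferation and survival in many tumours. It had 51 counts in the knockdown library and 84 in the control library, 33 fewer, or 1.10 TPM in the knockdown library and 1.88 TPM in the control library. The log2 ratio was −0.80 (−1.34 to −0.29), a ratio of 0.573 that rests on under 100 counts in each library. The log2 fold change with the pseudocount was −0.67, and with a pseudocount of 1 or with the deposited TPM it was −0.58, just short of 1.5-fold. In GENCODE release 29, 3 transcripts of the host span the cluster, and each of the 6 hairpins lies in an exon of 2 of them and in an intron of the other. The rows of all 6 hairpin genes stood at 0 in both libraries.

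The seed of miR-17 and miR-20a, and that of miR-92a, also occur in the miR-106b-25 cluster inside an intron of MCM7, a subunit of the replicative helicase. MCM7 is named here for those seeds, with its value known. It had 14107 counts in the knockdown library and 15402 in the control library, or 505 TPM in the knockdown library and 574 TPM in the control library, and a log2 ratio of −0.21 (−0.24 to −0.18). The third carrier of the miR-92a seed among the genes examined was MIR302CHG, host of the pluripotency cluster miR-302/367, with 1 count in the knockdown library and 2 in the control library. MIR17HG and MCM7 both had intervals below 0, where 20.9% of all expressed genes did, and MIR302CHG had too few counts to compare.

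MIR100HG was the clearest of the higher hosts. It spans chr11:122028329-122422871 on the minus strand and hosts miR-100, let-7a-2 and miR-125b-1 in introns, a set whose members are known to act on growth-factor and LIN28 pathways. It had 1185 counts in the knockdown library and 851 in the control library, 334 more, or 16.6 TPM in the knockdown library and 12.4 TPM in the control library. The log2 ratio was 0.39 (0.26 to 0.52), a ratio of 1.31 that stays under 1.5-fold. Its sister locus MIR99AHG, which carries miR-99a with the seed of miR-100, let-7c with that of let-7a, and a second copy of miR-125b, had 2 counts in the knockdown library and 1 in the control library. Between MIR100HG and MIR99AHG, nearly all counts thus lay on MIR100HG.

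The let-7 seed GAGGUAG was carried by 7 of the host genes examined, the most for any seed shown above. Beside MIR100HG and MIR99AHG these were MIRLET7BHG, MIRLET7A1HG, MIR4458HG, MIR4500HG and the ubiquitin ligase gene HUWE1, named for its seed with its value known. MIRLET7BHG, on chromosome 22 and host of let-7b and let-7a-3, had 41 counts in the knockdown library and 31 in the control library, a log2 ratio of 0.32 (−0.39 to 1.04). MIRLET7A1HG, host of let-7a-1, let-7f-1 and let-7d, had 17 counts in the knockdown library and 11 in the control library, a log2 ratio of 0.54 (−0.64 to 1.78), and it overlaps LINC02603 on the opposite strand, with 59 counts in the knockdown library and 62 in the control library. For both the interval held 0, and few counts lie behind both. MIR4458HG was at 0, MIR4500HG had 0 counts in the knockdown library and 1 in the control library, and HUWE1, with 19688 counts in the knockdown library and 19051 in the control library, had a log2 ratio of −0.04 (−0.07 to −0.01). Carriers of the let-7 seed thus lay on both sides of 0. MIR100HG is the 1 among them with a counting interval above 0, where 20.3% of all expressed genes had one.

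MIR22HG, at chr17:1711504-1716272 on the minus strand, carries miR-22 in an exon of all 19 spanning GENCODE transcripts. miR-22 is known as a repressor of proliferation in several epithelial cancers. The gene had 627 counts in the knockdown library and 493 in the control library, 134 more, with a log2 ratio of 0.26 (0.09 to 0.44). MIR23AHG, at chr19:13834516-13842918 on the minus strand, went the other way. It is the host of miR-23a, miR-27a and miR-24-2, and it had 680 counts in the knockdown library and 772 in the control library, 92 fewer, a log2 ratio of −0.27 (−0.42 to −0.12).

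MIR222HG and MIR4435-2HG were abundant and nearly level. MIR222HG, on the X chromosome, carries miR-221 and miR-222, which are known to target the cell-cycle inhibitor CDKN1B. It had 396 counts in the knockdown library and 367 in the control library, a log2 ratio of 0.03 (−0.18 to 0.23). MIR4435-2HG, on chromosome 2, is better known as a long non-coding RNA in its own right: its mouse counterpart Morrbid controls the lifespan of myeloid cells through the pro-apoptotic gene Bcl2l11. It had 1154 counts in the knockdown library and 1077 in the control library, a log2 ratio of 0.01 (−0.11 to 0.14), the narrowest interval of any host.

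The remaining hosts with at least 100 counts in a library were MIR600HG, MIR4453HG and MIR1915HG. MIR600HG had 158 counts in the knockdown library and 181 in the control library, a log2 ratio of −0.28 (−0.60 to 0.04). It lies in STRBP on the same strand, a gene with 2454 counts in the knockdown library and 2363 in the control library, so its reads could not be assigned with certainty. MIR4453HG had 150 counts in the knockdown library and 129 in the control library, a log2 ratio of 0.13 (−0.22 to 0.48). It overlaps FBXW7 on the opposite strand, which had 524 counts in the knockdown library and 406 in the control library. MIR1915HG had 119 counts in the knockdown library and 131 in the control library, a log2 ratio of −0.22 (−0.59 to 0.15). The interval of each of these held 0.

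MIR378D2HG, the 1 host past the upper threshold, lies on chromosome 8 and has a listed length of 911 bases, its whole span. It had 77 counts in the knockdown library and 44 in the control library, 33 more, or 9.12 TPM in the knockdown library and 5.43 TPM in the control library. The log2 ratio was 0.72 (0.17 to 1.29), while the log2 fold change with the pseudocount was 0.59, just past 1.5-fold. With a pseudocount of 1 it was 0.50, short of that threshold, and on the deposited TPM plus 0.5 it was 0.70. Few counts lie behind it, as behind the other hosts that follow.

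MIR210HG hosts miR-210, a microRNA induced by hypoxia. It had 73 counts in the knockdown library and 49 in the control library, a log2 ratio of 0.49 (−0.05 to 1.04). MIR762HG had 79 counts in the knockdown library and 55 in the control library, a log2 ratio of 0.44 (−0.08 to 0.96), and overlaps BCL7C on the opposite strand. Both intervals only just held 0. MIR31HG, host of miR-31 on chromosome 9, had 68 counts in the knockdown library and 54 in the control library, a log2 ratio of 0.25 (−0.29 to 0.79). Its span overlaps that of IFNE on the same strand, with 27 counts in the knockdown library and 22 in the control library. MIR503HG, host of miR-503 on the X chromosome, had 66 counts in the knockdown library and 58 in the control library, a log2 ratio of 0.10 (−0.43 to 0.64). MIR2052HG had 35 counts in the knockdown library and 30 in the control library, a log2 ratio of 0.14 (−0.61 to 0.89). The intervals of MIR31HG, MIR503HG and MIR2052HG lay well across 0.

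On the lower side, MIR9-3HG, a host of the neural microRNA miR-9, had 37 counts in the knockdown library and 49 in the control library, a log2 ratio of −0.49 (−1.15 to 0.16). The few-count host MIR9-1HG, which carries the same mature miR-9, had 9 counts in the knockdown library and 11 in the control library. MIR570HG had 28 counts in the knockdown library and 37 in the control library, a log2 ratio of −0.49 (−1.25 to 0.26), and its span partly overlaps that of the pseudogene SDHAP2 on the same strand. MIR137HG, host of miR-137, had 24 counts in the knockdown library and 27 in the control library, a log2 ratio of −0.25 (−1.11 to 0.59). MIR3936HG, which overlaps SLC22A4 and SLC22A5 on the opposite strand, had 25 counts in the knockdown library and 26 in the control library, a log2 ratio of −0.14 (−0.99 to 0.71). The intervals of all of these held 0, and MIR137HG and MIR3936HG sit at the edge of the expression filter, at a mean of 1.01 CPM and 1.0 CPM.

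**Figure D3:**
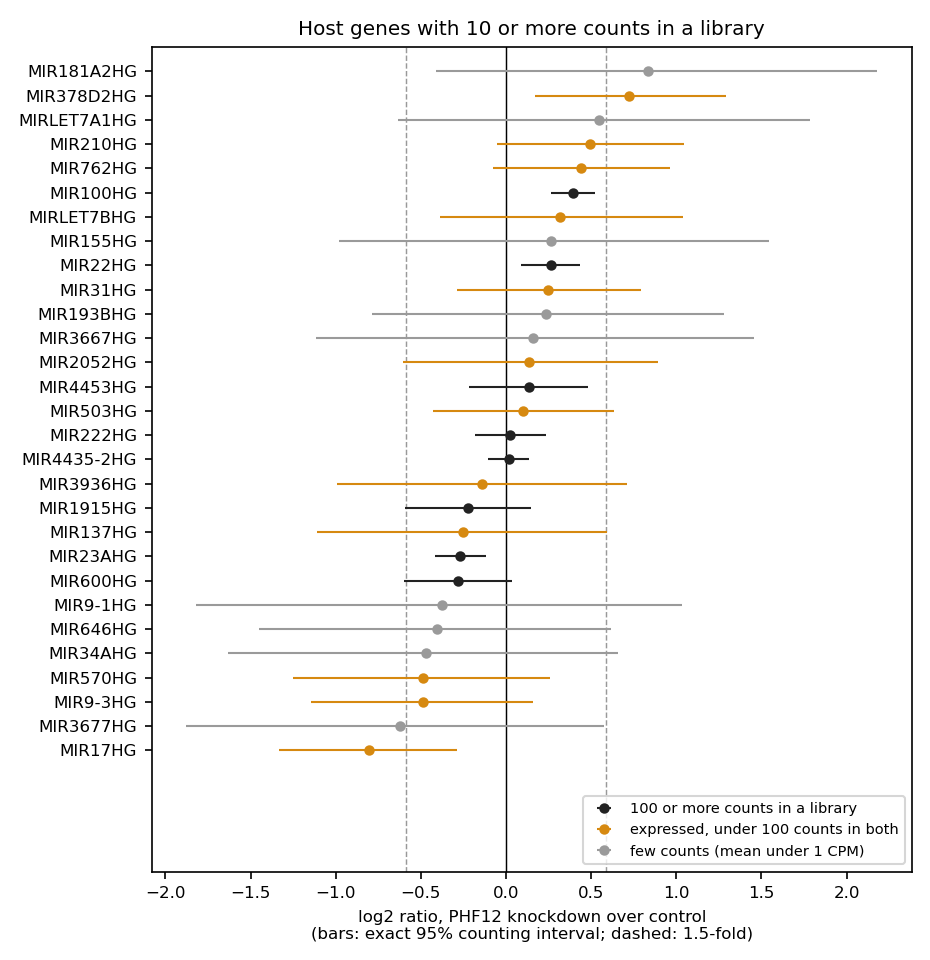
Log2 ratio of the knockdown over the control library, without pseudocount, for the 29 host genes with at least 10 counts in a library; bars are exact 95% counting intervals, dashed lines mark 1.5-fold, and colours separate hosts with 100 or more counts in a library, expressed hosts under 100 counts in both, and hosts with a mean under 1 CPM. The bars of MIR17HG and MIR23AHG lie below 0 and those of MIR378D2HG, MIR100HG and MIR22HG above it, and all others cross 0.

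A further 9 hosts had a mean under 1 CPM but at least 10 counts in a library, with 9 to 20 counts in each library, and all 9 intervals held 0. The hosts with the highest count among them were MIR193BHG, host of miR-193b and miR-365a, with 20 counts in the knockdown library and 16 in the control library, and MIR646HG, with 16 counts in the knockdown library and 20 in the control library. MIR34AHG, host of the p53-induced miR-34a, had 13 counts in the knockdown library and 17 in the control library. MIR155HG, the host of miR-155 known from activated lymphocytes, had 14 counts in the knockdown library and 11 in the control library. MIR181A2HG had 17 counts in the knockdown library and 9 in the control library, the largest ratio of the 9 at 1.78, with a log2 interval from −0.41 to 2.18, and it overlaps NR6A1 on the opposite strand. MIR3677HG, host of miR-3677 and miR-940, had 11 counts in the knockdown library and 16 in the control library, and MIR3667HG had 13 counts in the knockdown library and 11 in the control library. At these counts no change could be told from counting error.

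Under 10 counts in both libraries stood 17 hosts, with at most 4 counts in the knockdown library and 6 in the control library. MIR497HG, host of miR-195 and miR-497, had 3 counts in the knockdown library and 6 in the control library. Its microRNAs have the seed of miR-15 and miR-16, whose hosts among the genes examined were SMC4, a condensin subunit, with 6016 counts in the knockdown library and 5587 in the control library, and the long non-coding RNA gene DLEU2, with 104 counts in the knockdown library and 85 in the control library; both are named for the seed, with their values known. MIR29B2CHG had 4 counts in the knockdown library and 5 in the control library, and MIR583HG had 2 counts in the knockdown library and 1 in the control library. MIR181A1HG had 1 count in each. Seen in the knockdown library alone, with 1 count each, were 5 hosts: MIR124-1HG, MIR133A1HG, MIR3659HG, MIR3663HG and MIR4307HG. Seen in the control library alone, with 1 or 2 counts each, were 6: MIR194-2HG, MIR2117HG, MIR3945HG, MIR4500HG, MIR5689HG and MIR663AHG.

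The 29 hosts at 0 in both libraries included several whose microRNAs define other tissues. Among them were MIR1-1HG of muscle, MIR122HG of liver, MIR124-2HG of neurons, MIR223HG of myeloid cells, MIR205HG of squamous and basal epithelium, and MIR200CHG, whose miR-200c and miR-141 maintain the epithelial state. Related hosts were not all at 0. MIR133A1HG and MIR124-1HG had 1 count each in the knockdown library and 0 in the control library. MIR9-3HG, of the neural miR-9, was expressed, with 37 counts in the knockdown library and 49 in the control library. A count of 0 allows a level of up to 0.115 CPM in the knockdown library and 0.121 CPM in the control library, taken as 3 counts. The other hosts at 0 were MIR1302-2HG, MIR1302-9HG, MIR202HG, MIR217HG, MIR3142HG, MIR3150BHG, MIR325HG, MIR3681HG, MIR381HG, MIR3976HG, MIR4290HG, MIR4300HG, MIR4422HG, MIR4432HG, MIR4458HG, MIR4527HG, MIR4713HG, MIR548A1HG, MIR548XHG, MIR670HG, MIR7-3HG, MIR7515HG and MIR924HG. As a share, 26.7% of the hosts were expressed, against 9.85% of the 14953 lncRNA genes listed. Of all 38637 genes listed, 14559 were expressed by the same rule, a larger share than that of the hosts.

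The table also holds a row for each hairpin gene. Inside the spans of 71 hosts, on the same strand, lay 114 of these rows, of which 20 had any count, with 81 counts in all in the knockdown library and 64 in the control library. No such row lay inside MIR124-1HG, MIR3976HG, MIR670HG or MIR7515HG, which were counted as hosts by name alone. Poly(A) selection does not capture mature microRNAs, so these are reads of longer transcripts that cross a hairpin. The most counts were those of MIR2682 inside MIR137HG, with 21 in the knockdown library and 19 in the control library, where the host itself had 24 in the knockdown library and 27 in the control library. MIR570 had 11 in each, MIR10526 inside MIR100HG had 9 in the knockdown library and 4 in the control library, and MIRLET7D inside MIRLET7A1HG had 8 in the knockdown library and 7 in the control library. Of the 35 hairpin rows inside expressed hosts, 14 lay in introns by GENCODE release 29, and 9 of these had a count. Of the 7 that lay in exons of every spanning transcript, 0 had a count, among them MIR22, whose host was the most abundant per length in the knockdown library. Another 7 lay in an exon or an intron by transcript, with 1 counted, and 7 in no GENCODE transcript of the host, with 1 counted. The listed lengths of MIR23AHG and MIR378D2HG fill their whole spans, so for counting their hairpins lay in exons. The rows of MIR23A, MIR27A, MIR24-2 and MIR378D2 stood at 0 in both libraries. How the counting treated reads shared by a host exon and a hairpin is not stated in the labels, and its part in these zeros was not tested.

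The genes that make and use microRNAs were given as a list of 28, of which 27 were expressed. Of these 0 passed 1.5-fold, where 1.33% of all expressed genes were higher and 1.41% lower, and the median log2 fold change was 0.04, with 18 above 0 and 9 below. The counting interval lay above 0 for 11 of the 27 and below 0 for 7, where 20.3% and 20.9% of all expressed genes did. The TNRC6 scaffold genes of the silencing complex differed in direction. TNRC6B had 1087 counts in the knockdown library and 761 in the control library, a log2 ratio of 0.43 (0.29 to 0.57), and TNRC6A had 3004 counts in the knockdown library and 2231 in the control library, a log2 ratio of 0.34 (0.27 to 0.42). TNRC6C, their paralog, had 333 counts in the knockdown library and 447 in the control library, a log2 ratio of −0.51 (−0.72 to −0.30). DROSHA, the nuclease of the Microprocessor, had 2738 counts in the knockdown library and 2172 in the control library, a log2 ratio of 0.25 (0.17 to 0.33). Its partner DGCR8 was at 0.01 (−0.10 to 0.12) and DICER1 at 0.01 (−0.04 to 0.06). LIN28B, which binds let-7 precursors and blocks their maturation, was abundant at 96.8 TPM in the knockdown library and 89.7 TPM in the control library, while LIN28A had 0 counts in the knockdown library and 3 in the control library. DGCR8, DICER1 and the LIN28 genes are named here with their values known, for their place in the pathway.

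Hosts under other names were given as a list of 29 protein-coding or non-coding genes. One of them, the isoleucyl-tRNA synthetase gene IARS2, holds 2 microRNAs on the opposite strand and 0 on its own, so it is not a host as defined here. Of the other 28, each with a microRNA on the same strand within its span, 27 were expressed. Their median log2 fold change was −0.01, with 13 above 0 and 14 below, and over all 28 expressed genes of the list it was 0.00. The counting interval lay above 0 for 5 of the 27 and below 0 for 7, where 20.3% and 20.9% of all expressed genes did. At least 1.5-fold higher was 1 gene, FTX, where 1.33% of all expressed genes and 3.26% of expressed lncRNA genes were, and 0 were lower. With a log2 fold change of 1.05, FTX was also past 2-fold, where 0.117% of all expressed genes were higher. FTX and H19 are named with their values known. FTX is a long non-coding RNA gene of the X-inactivation centre that hosts miR-374a, miR-374b, miR-421 and miR-545, and it had 106 counts in the knockdown library and 42 in the control library, a log2 ratio of 1.25 (0.72 to 1.80). SKA2, a kinetochore gene that hosts miR-301a and miR-454, had 1996 counts in the knockdown library and 1338 in the control library, a log2 ratio of 0.49 (0.39 to 0.59). COPZ1, a coatomer subunit gene with miR-148b, was at 0.28 (0.22 to 0.34). EGFL7, a secreted factor of vessels with miR-126, was at −0.37 (−0.51 to −0.23), and SREBF2, the regulator of cholesterol synthesis with miR-33a, was at −0.23 (−0.28 to −0.18). H19 was at 0 in both libraries.

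**Figure D4:**
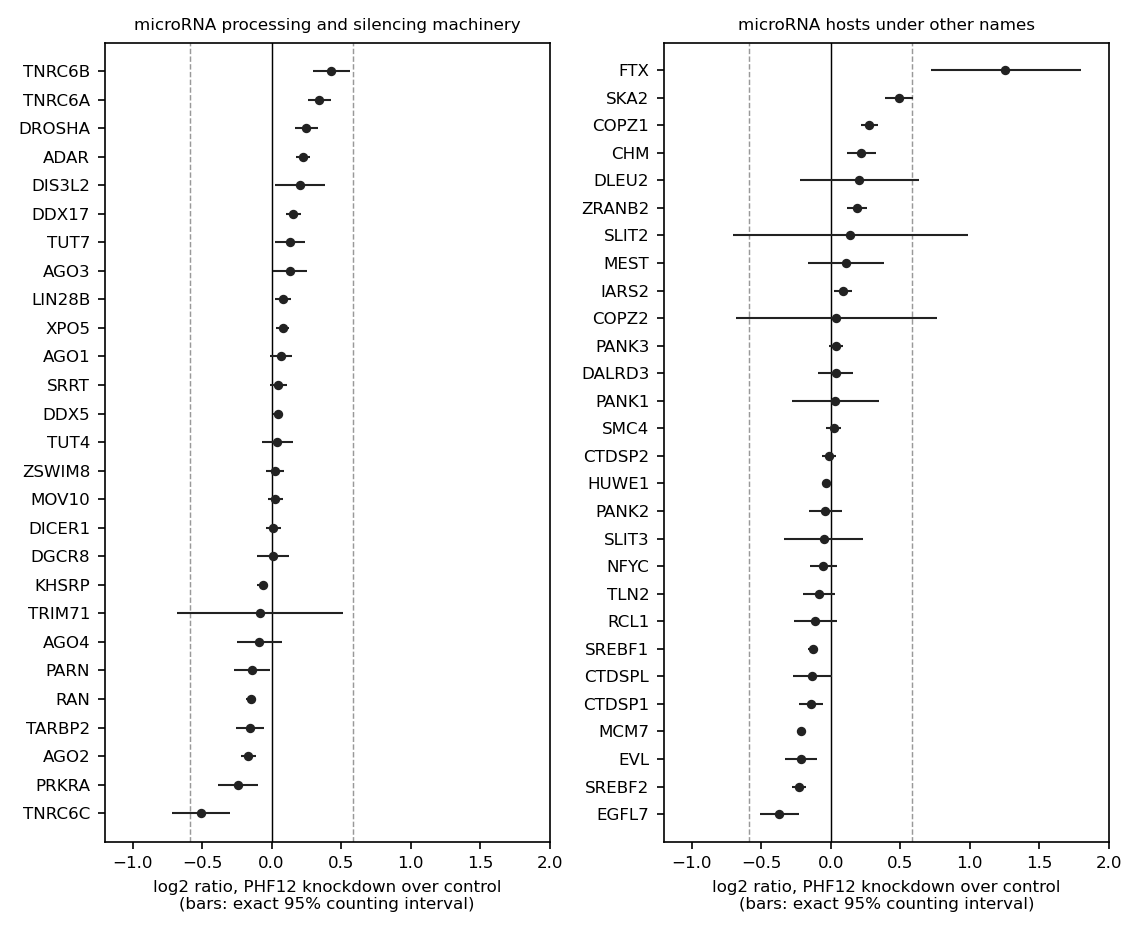
Log2 ratio of the knockdown over the control library, without pseudocount, for the 27 expressed genes of microRNA processing and silencing (left) and the 28 expressed genes listed as microRNA hosts with other names, IARS2 included (right); bars are exact 95% counting intervals and dashed lines mark 1.5-fold. FTX stands alone past the upper line, and TNRC6C lies opposite to TNRC6A and TNRC6B.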

How the data were processed

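RNA of the H1299 line was sequenced in 2 libraries, 1 per group, and groups were taken from the treatment label. Alignment used HISAT2 with the hg38 build and counting used HTSeq, per the submitters' processing notes. Their versions and the strand setting are not stated there, so a read in 2 genes that overlap on opposite strands is of uncertain origin. The deposited table holds raw counts and TPM for each gene, per the file headers, and the counts divided by the listed lengths gave the deposited TPM back.

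From the counts, TMM factors (edgeR 4.0.16, R 4.3.3) were 1.00 for the knockdown and 0.997 for the control library, and CPM used the scaled sizes. A gene averaging 1 CPM or more was called expressed, 14559 in all. A pseudocount of 0.5 CPM was added to each library for the log2 fold change, and a gene passed the rule of size at 1.5-fold. Log2 ratios carry no pseudocount, and their 95% intervals are exact conditional Clopper-Pearson intervals for the ratio of 2 Poisson counts. With 1 library per group there are no p-values. Sequences came from RefSeq (GRCh38.p14), where 95 of the 114 hairpin genes inside hosts were matched, and exon positions from GENCODE release 29 by gene number. The script was tested on simulated Poisson counts, which hold counting error but no other variation between libraries, so that test checks the calculation only. Alternatives were total-count scaling, DESeq2 1.42.0 size factors, pseudocounts of 0.1 and 1, no minimum and a minimum of 5 CPM. Others were the deposited TPM plus 0.5 in place of CPM, a 2-fold threshold, and leaving out hosts that overlap a measured gene. Intervals came from scipy 1.17.1 under Python 3.11.15.

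Every expressed host and every host with at least 10 counts in a library was to be named, and for the lists of processing genes and of hosts under other names the 4 with the largest absolute log2 fold change at a mean of at least 5 CPM; genes of these lists named otherwise are marked, and the marker genes printed were picked with values in view. The members and lists were chosen with earlier results of these data known.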

Additional observations from a re-analysis of the deposited data

How the results depend on the processing

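The median log2 fold change of the hosts used stayed above 0 under each of 8 alternatives tried for it, from 0.02 to 0.08. The hosts used were the 20 expressed, except for 46 without a minimum, 7 with a minimum of 5 CPM and 15 without overlapping hosts. The hosts past 1.5-fold depended on the settings: MIR378D2HG and MIR17HG each stayed past the threshold with total-count or DESeq2 scaling, with a pseudocount of 0.1, without a minimum and without overlapping hosts, while 0 hosts were higher and 0 lower with a pseudocount of 1, with a minimum of 5 CPM (which left 7 of 20 hosts, neither of these among them) and at 2-fold. With the deposited TPM, 0 were lower and MIR378D2HG stayed higher; MIR17HG was then at −0.58, as with a pseudocount of 1, against −0.67 in the report. Of 145 values of single hosts recomputed under 5 settings, 145 lay inside the host's counting interval and 0 changed sign. These settings reuse the same counts with other scaling or pseudocounts, so this could hardly have come out otherwise and says nothing about replication. The sum of host counts without MIR100HG, given in the report, was added after seeing the data. No paired analysis was possible because each group has 1 library. For the same reason no replicate could be left out. Depth limits the 12 expressed hosts under 100 counts and all 26 hosts with few counts: for these 26, no difference was detectable.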
